A study of Canis lupus familiaris with 6 samples.

Results

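Toll-like receptor adaptors and kinases are the proteins that carry the signal of a Toll-like receptor from the membrane into the cell. The genes described here were chosen by name, as the rows of the expression table with the gene symbol MYD88, TIRAP, TICAM1, IRAK1, IRAK3, IRAK4, TRAF6, MAP3K7, TAB2 or LY96. All 10 had a row among the 31512 genes of the table, and all 10 were among the 9847 genes tested. The samples were whole blood of adult Beagle dogs on day 30 of feeding, with 1 library per dog. The 3 dogs of the control group ate a snack without CPP-Se, and the 3 dogs of the CPP-Se group ate a snack that held CPP-Se, in which selenium is chelated by casein phosphopeptide. Both groups also ate the same maintenance food. The comparison asks how CPP-Se feeding relates to the level of these signalling genes in circulating blood.

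Toll-like receptors recognise molecules of microbes on and in leukocytes. Most of them bind the adaptor MYD88, in some cases through the bridging adaptor TIRAP, and MYD88 gathers the kinases IRAK4 and IRAK1. IRAK1 then works with the ubiquitin ligase TRAF6, which activates the kinase TAK1, the product of MAP3K7, through the binding protein TAB2, and TAK1 switches on NF-kappa B and the MAP kinases. TICAM1 is the adaptor of a separate branch that leads to type I interferon, IRAK3 acts as a brake on the MYD88 branch, and LY96 encodes MD-2, the partner of TLR4 that binds lipopolysaccharide. Neutrophils and monocytes are the blood cells best known for this pathway.

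The values were FPKM, which are fragment numbers corrected for the length of the gene and for the size of the library. Whole reads could be recovered from them, and 6598173 to 8067034 reads per dog lay on genes. CPP-Se replicate 2 stood apart from the other libraries. In it, 36.6% of the reads on genes fell on 8 hemoglobin genes, while the other 5 dogs had 48.7% to 55.9%. The library size that its FPKM imply was 1.65 times its reads on genes, against 0.882 to 1.05 times in the others. A larger size lowers all FPKM of a library by the same factor, and the size that the authors divided by is not given in the sources used here. Median-of-ratios scaling changed the deposited values little. With it MYD88, for example, went from 104 to 103 FPKM in that dog and from 125 to 123 FPKM in control replicate 1.

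No member passed the test for a change between the groups, and 6 of the 10 had a log2 fold change below 0. The adaptors MYD88 and TIRAP and the ligase TRAF6 were lower in all 3 CPP-Se dogs than in any of the 3 control dogs. TICAM1, IRAK1, TAB2 and IRAK4 had log2 fold changes of 0.09 to 0.19 and overlapping groups. Differences were tested on log2(FPKM + 1) with limma, two-sided, with Benjamini-Hochberg adjustment over all 9847 genes. This scale understates the change of genes with low FPKM. To be called, a gene had to differ by at least 1.5 times with an adjusted p below 0.05, which 0.0305% of all genes tested did. With limma, 0 of the 10 members were called, and their adjusted p ranged from 0.270 to 0.862. At an unadjusted p under 0.05, lower levels in the CPP-Se group were found for 2 members, MYD88 and TIRAP, and for 9.10% of all genes tested. Higher levels were found for 0 members and for 6.87% of all genes. Groups that did not overlap, with the CPP-Se group lower, were found for 3 members and for 12.6% of all genes. With the CPP-Se group higher, they were found for 0 members and for 10.4% of all genes. The count of 2 was 1 without control replicate 1, and 0 without any of control replicates 2 and 3 and CPP-Se replicates 1 and 3. Leaving out a dog cannot lower the count of 3 without overlap, which was 6 without CPP-Se replicate 2. That count was 3 with median-of-ratios scaling, 0 with the FPKM of each dog scaled to a common sum, and 0 with the reads on genes taken as the size of each library. In that order, 12.5%, 3.15% and 2.91% of all genes were lower without overlap, and 10.5%, 10.6% and 9.72% were higher. The counts of 0 lower members lie near these shares. The share of all genes with a dog left out is not given here. The median log2 fold change was -0.33 over the 10 members and -0.0043 over all genes tested. In whole blood, fewer cells of a type and less RNA per cell cannot be told apart.

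**Figure D1:**
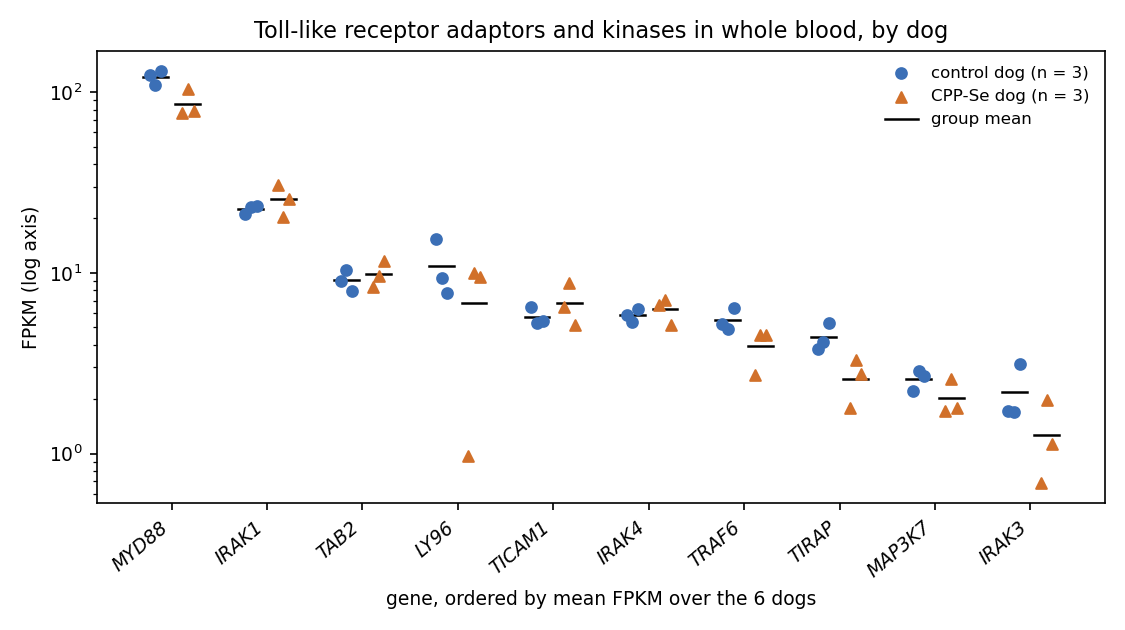
FPKM of each gene (log axis) in each dog, with control dogs as circles, CPP-Se dogs as triangles and the mean of each group as a bar (n = 3 dogs per group). MYD88 lies highest in every dog, at 76.8 to 130 FPKM, and 1 CPP-Se dog lies far below the other 5 for LY96, at 0.970 FPKM.

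MYD88 (ENSCAFG00000004966) lies on chromosome 23 from 7901250 to 7904534 on the plus strand of the Ensembl dog genome that the authors used, as do the other positions given here. It was the most abundant member. Its FPKM were 125, 110 and 130 in control dogs 1 to 3 (replicates in that order) against 76.8, 104 and 78.4 in CPP-Se dogs 1 to 3. The groups did not overlap, but the highest CPP-Se dog came close to the lowest control dog. The 95% counting interval (exact Poisson, which covers counting error only) was 103 to 117 FPKM in control replicate 2 and 99.6 to 109 FPKM in CPP-Se replicate 2, so these intervals overlapped. The mean was 122 ± 10.5 FPKM in the control group against 86.4 ± 15.3 FPKM for CPP-Se (mean ± SD over the 3 dogs of each group, as below). The log2 fold change was -0.50 with a standard error of 0.20 and a 95% confidence interval of -0.96 to -0.03 (unadjusted p = 0.0385, adjusted p = 0.285, limma). Without CPP-Se replicate 2 the log2 fold change was -0.64 (adjusted p = 0.206, limma). With the FPKM of each dog scaled to a common sum, which put the median of all genes at 0.13, it was -0.34 and the groups overlapped. With the reads on genes as library size, CPP-Se replicate 2 had the highest MYD88 level of the 6 dogs, at 172 FPKM against 103 to 137 FPKM in the control dogs, and the log2 fold change was -0.35 (unadjusted p = 0.373, limma).

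TIRAP (ENSCAFG00000010432, chromosome 5, 8221794 to 8226074, minus strand) is the adaptor that brings MYD88 to TLR2 and TLR4 at the membrane. Its FPKM were 3.77, 4.13 and 5.29 in control dogs 1 to 3 against 1.78, 3.28 and 2.74 in CPP-Se dogs 1 to 3. Every CPP-Se dog lay below every control dog, on 19 to 73 reads per dog. The mean was 4.40 ± 0.793 FPKM in the control group against 2.60 ± 0.760 FPKM for CPP-Se. The log2 fold change was -0.60 (standard error 0.23, 95% confidence interval -1.13 to -0.06, unadjusted p = 0.0328, adjusted p = 0.270, limma). The span of TIRAP shares 1659 bases with SRPRA, a gene on the opposite strand that encodes a part of the signal recognition particle receptor. Without strand information, reads from the shared stretch cannot be assigned to either gene, and the use of strand in the counting is not given in the sources used here. SRPRA had 14.4 to 18.8 FPKM in the control dogs and 14.6 to 19.7 FPKM in the CPP-Se dogs (log2 fold change 0.12, adjusted p = 0.813, limma).

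TICAM1 (ENSCAFG00000018946, chromosome 20, 54959525 to 54961780, plus strand), the adaptor TRIF of TLR3 and TLR4, had 6.49, 5.28 and 5.40 FPKM in the control dogs. It had 6.44, 8.77 and 5.14 FPKM in the CPP-Se dogs. The groups overlapped, and the highest value was that of CPP-Se replicate 2. The log2 fold change was 0.19 (95% confidence interval -0.32 to 0.69, adjusted p = 0.710, limma), and 0.012 without CPP-Se replicate 2.

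Among the kinases, IRAK4 (ENSCAFG00000009700, chromosome 27, 10314187 to 10340682, minus strand), which starts the kinase cascade at MYD88, varied least between dogs. Its FPKM were 5.84, 5.35 and 6.30 in control dogs 1 to 3 against 6.67, 7.08 and 5.12 in CPP-Se dogs 1 to 3. Every control dog lay between the lowest and the highest CPP-Se dog. The coefficient of variation over the 6 dogs was 12.6%, against up to 52.9% for LY96. The estimated log2 change was 0.09 (95% confidence interval -0.34 to 0.51, adjusted p = 0.862, limma). With 1 dog left out it lay between 0.0060, without CPP-Se replicate 2, and 0.21, without CPP-Se replicate 3.

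IRAK1 (ENSCAFG00000019436, chromosome X, 121819432 to 121862576, minus strand), the kinase that passes the signal from IRAK4 to TRAF6, had 21.2, 23.1 and 23.5 FPKM in the control dogs. In the CPP-Se dogs it had 30.5, 20.4 and 25.7 FPKM. The CPP-Se dogs were spread more widely, with both the highest and the lowest value of the 6. The mean was 22.6 ± 1.23 FPKM in the control group against 25.6 ± 5.05 FPKM for CPP-Se. On the log2 scale the change was 0.16 (95% confidence interval -0.30 to 0.61, adjusted p = 0.741, limma). It was 0.023 without CPP-Se replicate 1 and 0.30 without CPP-Se replicate 2.

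IRAK3 (ENSCAFG00000000374, chromosome 10, 8684242 to 8729268, plus strand), the member of the family that restrains the others and is known as IRAK-M, was the least abundant member. Its FPKM were 1.73, 1.69 and 3.11 in control dogs 1 to 3 against 0.690, 1.99 and 1.12 in CPP-Se dogs 1 to 3. The groups overlapped through CPP-Se replicate 2, and the reads behind these values were 22 to 51 in the control dogs against 9, 54 and 14 for CPP-Se. The fitted log2 difference was -0.50 (95% confidence interval -1.20 to 0.20, adjusted p = 0.468, limma). It was -0.30 without control replicate 3, -0.31 without CPP-Se replicate 1 and -0.79 with a pseudocount of 0.1.

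TRAF6 (ENSCAFG00000006813, chromosome 18, 31675391 to 31688641, plus strand), the ubiquitin ligase at which the receptor signals meet, had 5.23, 4.86 and 6.40 FPKM in the control dogs. It had 2.71, 4.53 and 4.55 FPKM in the CPP-Se dogs. The groups did not overlap, but 2 of the CPP-Se dogs lay just under the lowest control dog, whose counting interval was 3.70 to 6.26 FPKM. The mean was 5.50 ± 0.806 FPKM in the control group against 3.93 ± 1.06 FPKM for CPP-Se. The groups differed in log2 by -0.42 (standard error 0.22, 95% confidence interval -0.94 to 0.10, unadjusted p = 0.102, adjusted p = 0.410, limma). Without CPP-Se replicate 1 it was -0.22.

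MAP3K7 (ENSCAFG00000003123, chromosome 12, 49672389 to 49739850, minus strand), which encodes TAK1, had 2.21, 2.86 and 2.67 FPKM in control dogs 1 to 3 against 1.71, 2.57 and 1.79 FPKM in CPP-Se dogs 1 to 3. The groups overlapped, since CPP-Se replicate 2 lay above control replicate 1. Its log2 fold change was -0.25 (95% confidence interval -0.74 to 0.24, adjusted p = 0.608, limma). TAB2 (ENSCAFG00000000373, chromosome 1, 40149569 to 40215385, plus strand), the partner that ties TAK1 to ubiquitin chains, had 8.98, 10.4 and 7.90 FPKM in control dogs 1 to 3 against 8.39, 9.62 and 11.6 FPKM in CPP-Se dogs 1 to 3. Its groups overlapped, with a log2 fold change of 0.10 (95% confidence interval -0.34 to 0.55, adjusted p = 0.833, limma) that was -0.0081 without CPP-Se replicate 3.

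LY96 (ENSCAFG00000032483, chromosome 29, 22493896 to 22515117, plus strand) differed most between dogs. Its FPKM were 15.5, 9.41 and 7.73 in control dogs 1 to 3 against 0.970, 9.94 and 9.47 in CPP-Se dogs 1 to 3. A single dog, CPP-Se replicate 1, lay far below the other 5, and the other CPP-Se dogs lay within the range of the control dogs. In that dog 3 reads lay on LY96, with a 95% counting interval of 0.200 to 2.83 FPKM. The next lowest dog, control replicate 3, had 30 reads and an interval of 5.21 to 11.0 FPKM, so the intervals of these dogs did not overlap. The estimated log2 change was -0.91 with a wide 95% confidence interval of -2.39 to 0.57 (adjusted p = 0.531, limma). Without CPP-Se replicate 1 it was -0.10 (adjusted p = 0.916, limma). In a comparison chosen after these values were seen, 3236 other tested genes with a mean of 17.1 to 68.3 reads were searched for a lowest dog as far under the next one. There were 27 such genes, or 0.834%, and the lowest dog was CPP-Se replicate 1 in 8 of them.

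TLR4, the receptor that MD-2 serves, had 22.3, 18.1 and 27.2 FPKM in control dogs 1 to 3 against 8.79, 11.7 and 7.19 FPKM in CPP-Se dogs 1 to 3. Its groups did not overlap at this scaling, and its log2 fold change was -1.21 (standard error 0.23, adjusted p = 0.138, limma). With the reads on genes as library size they overlapped, since CPP-Se replicate 2 then had 19.4 FPKM and control replicate 2 had 16.9 FPKM. The LY96 to TLR4 ratio within a dog was 0.695, 0.519 and 0.285 in control dogs 1 to 3 against 0.110, 0.846 and 1.32 in CPP-Se dogs 1 to 3. The CPP-Se dogs held both the lowest and the highest ratio.

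**Figure D2:**
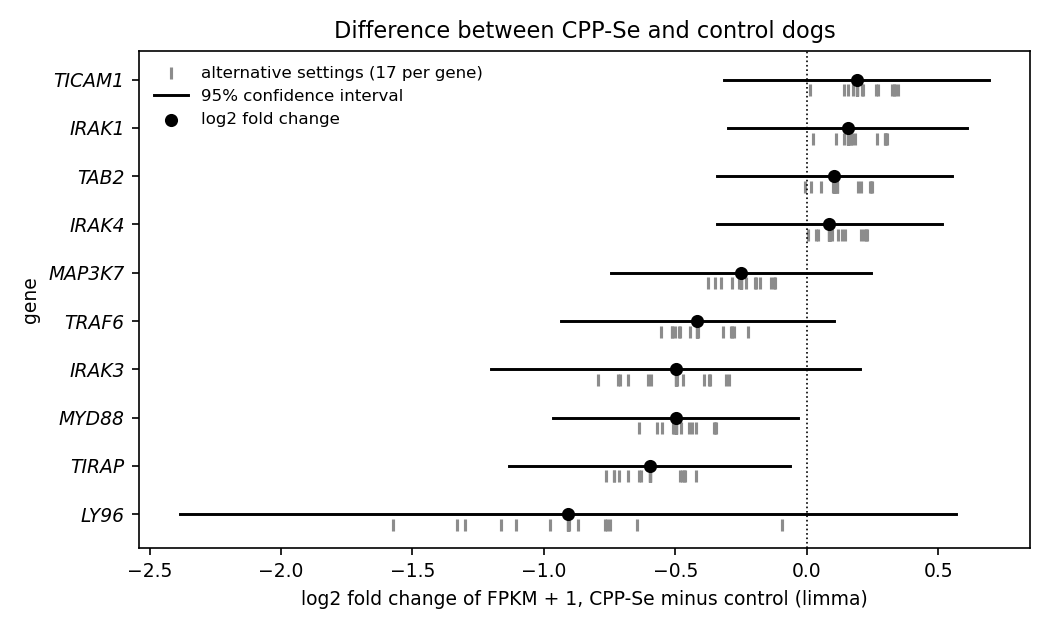
Log2 fold change of FPKM + 1 between CPP-Se and control dogs for each gene (dots, n = 3 dogs per group) with its 95% confidence interval (lines) and the value under each of 17 alternative settings (ticks below each line). The intervals of MYD88 (-0.96 to -0.03) and TIRAP (-1.13 to -0.06) lie below 0, and that of LY96 is the widest.

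FPKM are per length, so levels can be set side by side between genes as far as the listed length fits the transcript. That fit was not checked, and the listed lengths ran from 483 bases for LY96 to 3376 bases for IRAK1. MYD88 ranked first and IRAK1 second among the members in all 6 dogs, and together they made up 71.5% to 78.5% of the summed FPKM of the 10 genes. MYD88 alone made up 63.7%, 62.1% and 65.6% of that sum in control dogs 1 to 3 against 56.2%, 60.4% and 53.8% in CPP-Se dogs 1 to 3, without overlap. The sum itself was 177 to 199 FPKM in the control dogs against 137 to 172 FPKM for CPP-Se. These sums overlapped with each dog scaled to a common sum, over all genes or outside red cell genes. They also overlapped with the reads on genes as library size, where they were 165 to 208 FPKM against 129 to 285 FPKM and CPP-Se replicate 2 was the highest dog. By mean FPKM, MYD88 and IRAK1 were followed by TAB2, LY96, TICAM1, IRAK4, TRAF6, TIRAP, MAP3K7 and IRAK3. The same 6 dogs set this order, so the differences between neighbours are given as a description without a test. MYD88 exceeded IRAK1 by 2.09 ± 0.50 on the log2 scale (mean ± SD over 6 dogs), and IRAK1 exceeded TAB2 by 1.34 ± 0.31. TRAF6 exceeded TIRAP by 0.46 ± 0.19, and TIRAP exceeded MAP3K7 by 0.55 ± 0.33. These 4 pairs kept their order in 6 of 6 dogs. TAB2 lay above LY96 in 4 of 6 dogs, LY96 above TICAM1 in 5 of 6 and TICAM1 above IRAK4 in 3 of 6, with mean differences smaller than their SD. IRAK4 lay above TRAF6, and MAP3K7 above IRAK3, in 5 of 6 dogs.

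Ratios between members within a dog do not depend on the scaling between libraries. An exact two-sided permutation test of 3 against 3 dogs cannot go below p = 0.1, so no ratio could reach 0.05. Of the 6 ratios examined, 2 did not overlap between the groups, beside 20.9% of the ratios of all pairs of tested genes above 0 FPKM in every dog. The TICAM1 to MYD88 ratio, which sets the interferon branch adaptor against the common one, was 0.0521, 0.0480 and 0.0415 in control dogs 1 to 3 against 0.0839, 0.0844 and 0.0656 in CPP-Se dogs 1 to 3. It was higher in every CPP-Se dog, by 0.72 on the log2 scale (SD 0.17 in control and 0.21 in CPP-Se dogs, exact permutation p = 0.1, adjusted p = 0.3).

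The IRAK3 to IRAK4 ratio, the brake against the kinase it restrains, was 0.296, 0.316 and 0.494 in control dogs 1 to 3 against 0.103, 0.280 and 0.219 in CPP-Se dogs 1 to 3. It was lower in every CPP-Se dog, with a log2 difference of -0.95 (SD 0.40 and 0.75, exact permutation p = 0.1, adjusted p = 0.3), and CPP-Se replicate 1 held the lowest value. The log2 difference was -0.53 without that dog and -0.58 for ratios of FPKM + 1. The other ratios overlapped. The log2 difference was -0.29 for TIRAP to MYD88 (exact permutation p = 0.3), 0.48 for TAB2 to MAP3K7 (p = 0.2), 0.063 for IRAK1 to IRAK4 (p = 0.9) and 0.088 for LY96 to TLR4 (p = 1).

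**Figure D3:**
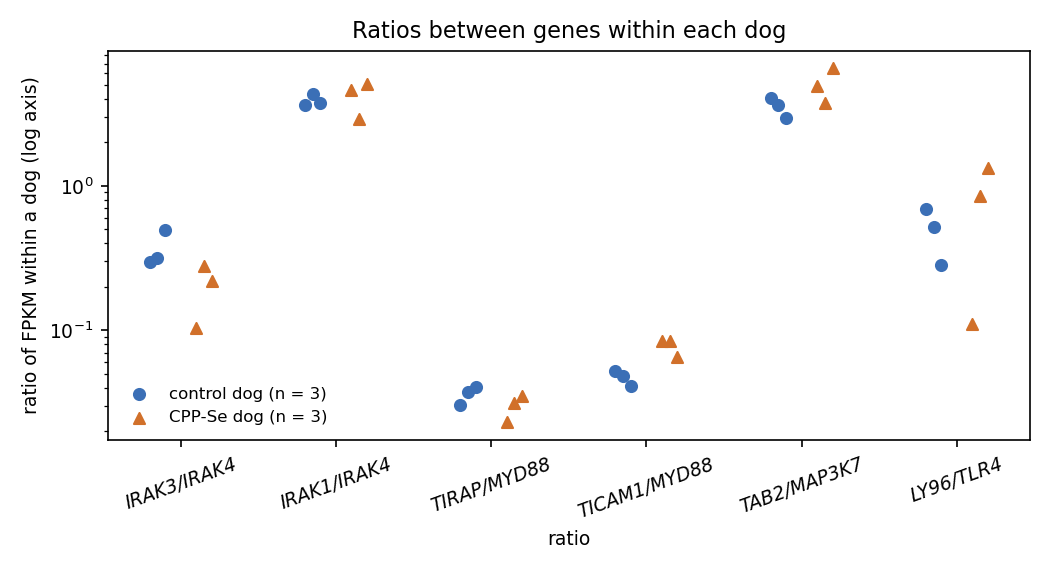
Ratio of the FPKM of paired genes (log axis) in each dog, with control dogs as circles and CPP-Se dogs as triangles (n = 3 dogs per group). TICAM1/MYD88 is higher and IRAK3/IRAK4 lower in all CPP-Se dogs than in all control dogs, and the other ratios overlap.

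Of 55 other genes of the pathway, 52 had a row and 45 were tested. With limma, 0 of the 45 were called (lowest adjusted p = 0.138). By unadjusted p under 0.05, 14 had a lower and 1 had a higher level in the CPP-Se group, beside 9.10% and 6.87% of all genes. The groups did not overlap for 19 lower and 2 higher genes, beside 12.6% and 10.4% of all genes, and the median log2 fold change was -0.25. With the reads on genes as library size, 3 of the 45 were lower without overlap (LY86, SARM1 and MAPK14) and 1 was higher (TLR9), beside 2.91% and 9.72% of all genes. By list, the lower ones were then 0 of 5 receptors, 2 of 5 accessory and further adaptor genes, 0 of 14 further kinase and ubiquitin genes, 1 of 10 MAP kinase genes, 0 of 4 interferon regulatory factors and 0 of 7 brakes. As deposited, the mean FPKM of TLR9 was 0.577 in the control and 1.63 in the CPP-Se group. It reached the filter of a mean of 1 FPKM only through the CPP-Se group. SARM1 (1.47 and 0.953 FPKM) and IRAK2 (1.94 and 0.752 FPKM) reached it only through the control group. That filter favoured the part of these genes in the counts above and below. The counts that follow are for the FPKM as deposited. Of the 5 receptors tested, 3 were lower without overlap, beside 12.6% of all genes. TLR9, named after its values were seen, was higher without overlap. Since TLR9 was tested only through its CPP-Se values, it is not read as a second direction among the receptors. TLR2, which senses bacterial lipoproteins, had 44.9, 39.9 and 56.2 FPKM in control dogs 1 to 3 against 20.2, 36.5 and 19.8 FPKM in CPP-Se dogs 1 to 3 (log2 fold change -0.90, adjusted p = 0.199, limma).

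Of the 5 accessory and further adaptor genes tested, 4 were lower without overlap, beside 12.6% of all genes. CD180, a relative of TLR4, had means of 14.4 and 9.09 FPKM in the control and CPP-Se groups (log2 fold change -0.63, adjusted p = 0.203, limma). TICAM2, the adaptor that links TLR4 to TICAM1, had means of 5.08 and 2.35 FPKM (log2 fold change -0.86, adjusted p = 0.250, limma).

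Among 14 further kinase and ubiquitin genes, 4 were lower and 1 was higher without overlap, beside 12.6% and 10.4% of all genes, and the median log2 fold change was -0.024. PELI1, a ubiquitin ligase that acts on IRAK1, had 28.6 ± 1.46 FPKM in the control group against 15.4 ± 2.69 FPKM for CPP-Se (log2 fold change -0.86, adjusted p = 0.141, limma). IKBKB, a kinase that releases NF-kappa B, had 9.92 ± 0.316 and 6.89 ± 0.730 FPKM (log2 fold change -0.47, adjusted p = 0.250, limma).

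In the MAP kinase arm, 2 of 10 genes were lower without overlap, near the 12.6% of all genes, with a median log2 fold change of -0.17. MAPK14, the kinase p38 alpha, had 73.3 ± 9.67 FPKM in the control group against 44.8 ± 5.28 FPKM for CPP-Se (log2 fold change -0.70, adjusted p = 0.183, limma). MAP2K3, which activates p38, had means of 60.5 and 45.1 FPKM (log2 fold change -0.43, adjusted p = 0.349, limma).

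Of the 4 interferon regulatory factors tested, 1 (IRF1) was lower and 0 were higher without overlap, beside 12.6% and 10.4% of all genes. None of the 4 had an unadjusted p under 0.05 with limma, beside 9.10% of all genes with a lower and 6.87% with a higher level. IRF3, the factor downstream of TICAM1, had 56.4, 60.8 and 45.5 FPKM in control dogs 1 to 3 against 117, 61.9 and 56.4 FPKM in CPP-Se dogs 1 to 3, so the higher CPP-Se mean of 78.3 ± 33.3 FPKM rested mainly on CPP-Se replicate 1 (log2 fold change 0.45, adjusted p = 0.503, limma). IRF1 had 45.6 to 54.4 FPKM in the control dogs against 38.5 to 45.1 FPKM for CPP-Se, with a log2 fold change of -0.22 (adjusted p = 0.573, limma).

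Among 7 brakes of the pathway, 5 were lower without overlap, beside 12.6% of all genes, with a median log2 fold change of -0.39. NFKBIA, the inhibitor that holds NF-kappa B in the cytoplasm, had 45.9 ± 10.3 FPKM in the control group against 24.4 ± 3.07 FPKM for CPP-Se (log2 fold change -0.87, adjusted p = 0.162, limma). TANK, a binding partner of TRAF proteins, had 5.87 ± 0.879 and 3.38 ± 0.411 FPKM (log2 fold change -0.64, adjusted p = 0.189, limma).

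**Figure D4:**
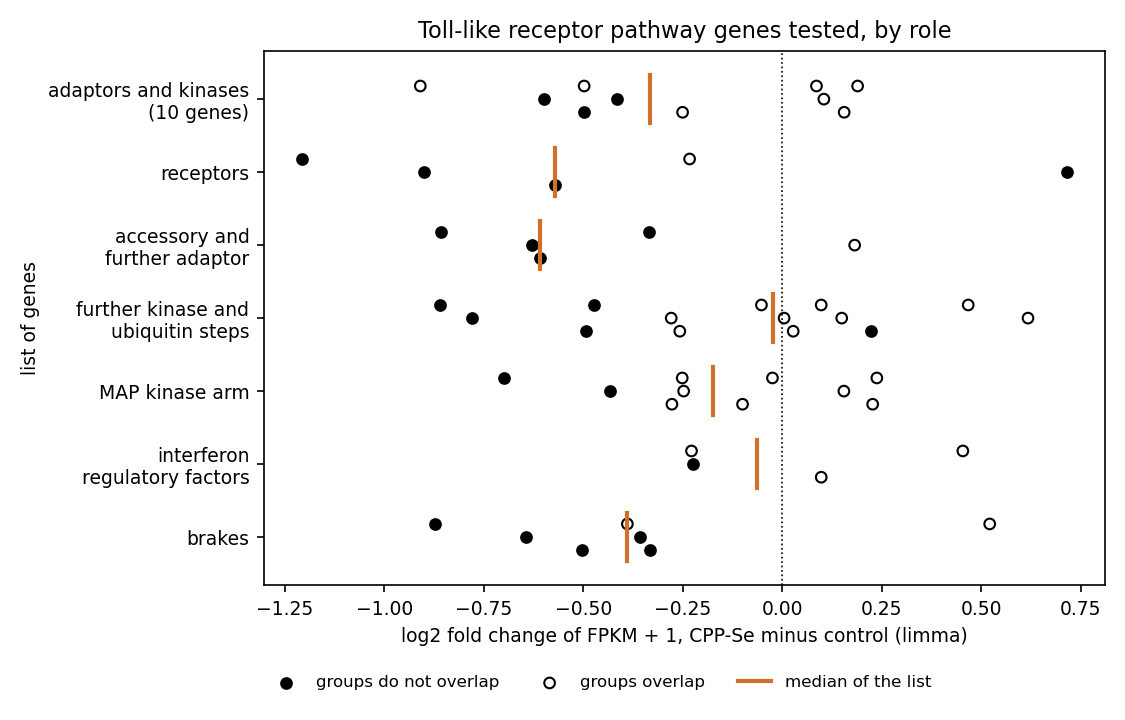
Log2 fold change of FPKM + 1 between CPP-Se and control dogs for each tested gene, by list (filled, groups do not overlap; open, groups overlap), with the median of each list as a bar. The medians run from -0.61 for the accessory and further adaptor genes to -0.024 for the further kinase and ubiquitin steps, with -0.33 for the 10 adaptors and kinases.

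Markers of blood cell types also differed in level between the groups, although 0 of them were called with limma. The summed FPKM of the neutrophil list was 1836 to 2413 in the control dogs against 1409 to 1771 for CPP-Se. Of its 6 tested genes, 5 had a log2 fold change below 0, each with an unadjusted p under 0.05, as 9.10% of all genes had with a lower level (median over the 6, -0.71). The exception was MMP9, which had a log2 fold change of 1.35, higher in the CPP-Se group. The neutrophil genes MPO and ELANE had a mean under 1 FPKM and were not tested. The summed FPKM of the monocyte list was 416 to 544 in the control dogs against 290 to 294 for CPP-Se. All 9 tested genes had a log2 fold change below 0, and 7 of them had an unadjusted p under 0.05, again beside 9.10% of all genes (median -0.82). With the reads on genes as library size, CPP-Se replicate 2 lay within the range of the control dogs for both lists. Its neutrophil sum was then 2329 FPKM, against 1713 to 2496 FPKM in the control dogs, and its monocyte sum was 481 FPKM, against 388 to 571 FPKM.

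Lymphocyte lists went the other way in most genes. All 8 B cell markers tested and 9 of the 10 T cell markers had a log2 fold change above 0, and 5 in each list had an unadjusted p under 0.05 with a higher level, as did 6.87% of all genes (median 0.64 in both). The exception was CD4, the most abundant gene of the T cell list. The sum of that list was 1025 to 1352 FPKM in the control dogs against 859 to 991 FPKM for CPP-Se. This lower sum goes against 9 of the 10 genes, so it follows CD4 and is not read as the level of T cells. The sum of the B cell list was 278 to 398 FPKM in the control dogs against 426 to 467 FPKM for CPP-Se. The sum of the NK and cytotoxic list was 7.76 to 16.9 FPKM in the control dogs and 21.99 to 36.6 FPKM in the CPP-Se dogs. With the reads on genes as library size, the NK and cytotoxic sums still did not overlap, while the T cell and B cell sums did. In the FPKM as deposited, all 5 NK and cytotoxic genes tested had a log2 fold change above 0. Only 1 of them, PRF1, was higher without overlap, beside 10.4% of all genes, and NCR1 and KLRB1 were not tested. The sums of the red cell and platelet lists overlapped between the groups. The red cell sum is mostly HBM and ALAS2, and 8 of the 10 red cell genes had a log2 fold change above 0 (median 0.66). Of them, 4 had an unadjusted p under 0.05, beside 6.87% of all genes, and 3 (ANK1, TMCC2 and RHAG) were higher without overlap, beside 10.4% of all genes. The part of these differences in the lower MYD88, TIRAP and TRAF6 was not tested.

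As a description over 6 dogs that share these group differences, the genes whose log2(FPKM + 1) was most correlated with each of those members were listed among 8130 tested genes with a symbol. For MYD88 they were TGFBI (Pearson r = 0.999), ADAM17 (0.997) and ATP6V1A (0.995). For TIRAP they were KCTD20 (0.990), CASS4 (0.987) and UBXN7 (0.983), and for TRAF6 they were MBD5 (0.993), RASSF3 (0.992) and CDK2 (0.991). Such values were common, since 135 genes exceeded r = 0.95 with MYD88, 60 with TIRAP and 44 with TRAF6.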

How the data were processed

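RNA from whole blood of 6 dogs was sequenced as paired-end, poly-A selected libraries. The authors filtered reads with fastp 0.19.7, aligned them with HISAT2 2.0.5 to the Ensembl dog genome and deposited 1 FPKM value per gene and dog, and featureCounts 1.5.0-p3 is named in the submitters' processing notes. The deposited table also gives gene lengths, and FPKM times length gave whole reads (100% of values, within 0.05 read). Every gene whose mean reached 1 FPKM was tested on log2(FPKM + 1) with limma 3.58.1 (lmFit, eBayes with a trend) in R 4.3.3, by group alone, and the script was tested on simulated data. Exact permutation tests were used for ratios. A planned sign-flip test of neighbours in the order of levels is not given, since the same dogs set the order. Other pseudocounts, filters, scalings, limma-voom on recovered reads, a replicate block and leaving out each dog were tried. Voom with sample quality weights, the reads on genes as library size, the share of all gene pairs without overlap, and the scalings for groups without overlap and for list sums, were added after the data were seen.

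The members and lists were chosen with earlier results of these data known. Named were all members, the lowest 2 unadjusted p in each role of the pathway lists, and, for the 3 members with the lowest p, the 3 genes most correlated with each. TLR8, CD14 and IRF7, and the markers FPR1, PADI4, NKG7, GNLY, GP1BA, GP9 and PF4, were not analysed here. Samples are biological replicates per the labels.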

Additional observations from a re-analysis of the deposited data

How the results depend on the processing

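Of the members, 0 were called by limma under any alternative, including an adjusted p under 0.1. The count of all genes called was 3, and it was 0 with a pseudocount of 0.1, 0 with no filter, 12 with a common sum of FPKM, 1 with voom, 1 with a replicate block, 23 with the reads on genes as library size and 156 with voom and sample quality weights. It ranged from 0 to 14 with 1 dog left out, with 14 without CPP-Se replicate 2. Members with an unadjusted p under 0.05 numbered 2, and 0 with a common sum, 0 with a common sum outside red cell genes, 0 with the reads on genes as library size, 1 with voom, 1 with a replicate block, 1 with quality weights, and 0 to 2 with 1 dog left out. Members without overlap numbered 3, and 0 with a common sum, 1 outside red cell genes (IRAK1, higher), 0 with the reads on genes and 3 to 6 with 1 dog left out, with 6 without CPP-Se replicate 2. Of all genes, 3.15%, 4.78% and 2.91% were lower without overlap under those scalings in that order, and 10.6%, 13.5% and 9.72% were higher. The counts of 0 lower members and 1 higher member lie near these shares. The share of all genes with 1 dog left out is not given here. Ratios without overlap numbered 2, and 2 to 4 with 1 dog left out (4 without control replicate 1 and without CPP-Se replicate 2). Leaving out a dog cannot lower a count without overlap, so the low ends of these ranges were fixed by construction. The common sums moved the median of all genes to 0.13 and 0.12, and the reads on genes to 0.12. The log2 fold change of TAB2 reversed to -0.0081 without CPP-Se replicate 3 (0.21 at the other end of the left-out range). With 1 dog left out, the LY96 to TLR4 difference ranged from -0.61 to 1.17 (reversed at -0.61, -0.30 and -0.27) and the IRAK1 to IRAK4 difference from -0.093 to 0.31 (reversed at -0.093 and -0.026). The cause of these moves was not tested. Dogs of the same replicate number did not deviate together (r = 0.016, -0.090 and -0.043), so the numbers were not read as pairs. Low reads limit IRAK3, LY96, MAP3K7 and TIRAP most.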

Other observations

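The nearest relatives of the members, chosen after their values were seen, gave the following levels. IRAK2, a kinase of the same family, had 2.51, 1.76 and 1.53 FPKM in the control dogs and 0.167, 1.13 and 0.963 FPKM in the CPP-Se dogs. Every CPP-Se dog lay below every control dog, on 2 to 32 reads per dog (log2 fold change -0.78, standard error 0.31, adjusted p = 0.284, limma). The means were 1.94 and 0.752 FPKM, so IRAK2 reached the filter of 1 FPKM only through the control group. With the reads on genes as library size these groups overlapped. TAB1, the other well-known partner of TAK1, had 6.93, 4.99 and 5.14 FPKM in the control dogs and 11.9, 6.56 and 6.89 FPKM in the CPP-Se dogs (log2 fold change 0.47, adjusted p = 0.416, limma). Its groups overlapped. TAB3, the close relative of TAB2, had 0.439 to 1.17 FPKM and was not tested. TRAF3, which works in the TICAM1 branch, had 2.73, 2.04 and 1.48 FPKM in the control dogs and 1.10, 1.82 and 1.66 FPKM in the CPP-Se dogs, with overlap (adjusted p = 0.624, limma). SARM1, the adaptor best known for its role in neurons, had 1.21 to 1.89 FPKM in the control dogs and 0.655 to 1.13 FPKM in the CPP-Se dogs, without overlap (adjusted p = 0.566, limma). With means of 1.47 and 0.953 FPKM, SARM1 also reached the filter only through the control group.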
